A study of Mus musculus with 12 samples.

Results

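LM8 is a mouse osteosarcoma cell line that metastasises to the lung and was derived by in vivo selection from Dunn, a line of low metastatic potential. Gene expression of LM8 cells at passage 24 (early) was compared with that of LM8 cells at passage 91 (late), on 3 arrays per group, which are 6 of the 12 arrays of the series. The other arrays hold Dunn cells at passages 25 and 86 and were used only to test whether a change in LM8 cells differed from that in Dunn cells. The members were all probes of these arrays other than controls, 39429 in number, of which 21503 had a signal well above background on every array of at least 1 of the LM8 groups. By the probe with the highest mean signal of each gene, 12417 of 20144 measured genes met that rule. The question addressed is how stable the expression of the metastatic line is in long-term culture.

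Whether the genome of LM8 cells changed between the passages was not measured. Both groups are cells of this line and received no treatment. They were grown in DMEM and Ham F12 with fetal calf serum and harvested before confluence. Late cells descend from the early ones. Frozen aliquots of each were thawed and cultured for a few further passages under the same conditions before RNA was taken. It is not stated whether the long-term culture was repeated, so p-values here measure the spread between the 3 RNA samples of a group only. Changes are of a mixed cell population, in which fewer cells of a kind and less RNA per cell cannot be told apart.

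As background, osteosarcoma is a malignant tumour of bone whose cells secrete osteoid, a matrix rich in type I collagen, and carry the transcription factors of the osteoblast lineage. Interferons induce a common set of antiviral genes through a complex that contains Stat2 and Irf9 and binds a short element upstream of them. Cancer-testis genes are expressed in the germ line or placenta, are silent in most other tissues, and are often clustered on the X chromosome. Tumour cells can express them.

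Levels are given on the log2 scale relative to the 75th percentile of the signals of each array, so that a difference of 1 is a factor of 2. That percentile was 788.3 to 1699 on the LM8 arrays, and 53.7% to 59.5% of probes were well above background. Correlations between arrays were 0.984 to 0.986 among early, 0.988 to 0.991 among late and 0.974 to 0.984 between early and late arrays. The replicate number marks a slide, and each of the 3 slides held 1 early and 1 late LM8 array, always at the same place on the slide, so that place and passage cannot be told apart. A gene is described as higher (risen) or lower (fallen) in late cells when its level changed over 2-fold, the adjusted p of limma over all probes was under 0.05 and its probe was well above background on all 3 arrays of a group. Where a group was well above background on no array, the fold change is a bound, written as at least. For it, the dimmer group was raised on each array to the dimmest signal of any probe well above background, where the probe itself lay below that, before the group means were compared.

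Between passages 24 and 91, 489 of 20144 genes (2.43%) changed in LM8 cells, 178 (0.884%) to a higher and 311 (1.54%) to a lower level. Early and late arrays did not overlap for any of the 489 genes, and the direction was the same on each of the 3 slides. Over all genes, 4820 (23.9%) had groups that did not overlap. Of the 178 genes that rose, 79 were well above background on no early array, and of the 311 that fell, 64 were well above background on no late array. The median change over all genes was -0.19, and 67.8% of genes had a lower level in late cells, so falls are counted from a centre slightly below 0. In the deposited intensities without scaling between arrays, the median was 0.19 and the counts were 155 higher and 137 lower, which turns the balance between rises and falls. When each array was left out in turn, 111 to 169 genes were higher and 156 to 302 lower. The numbers of higher and lower genes were 111 and 164 without late replicate 2, 112 and 156 without late replicate 3, 121 and 172 without early replicate 1, and 169 and 203 without early replicate 2. In all 6 of these fits, 99 of the 178 and 140 of the 311 genes were found again. Genes given below with their levels on each array belong to these unless an adjusted p of such a fit is added.

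**Figure D1:**
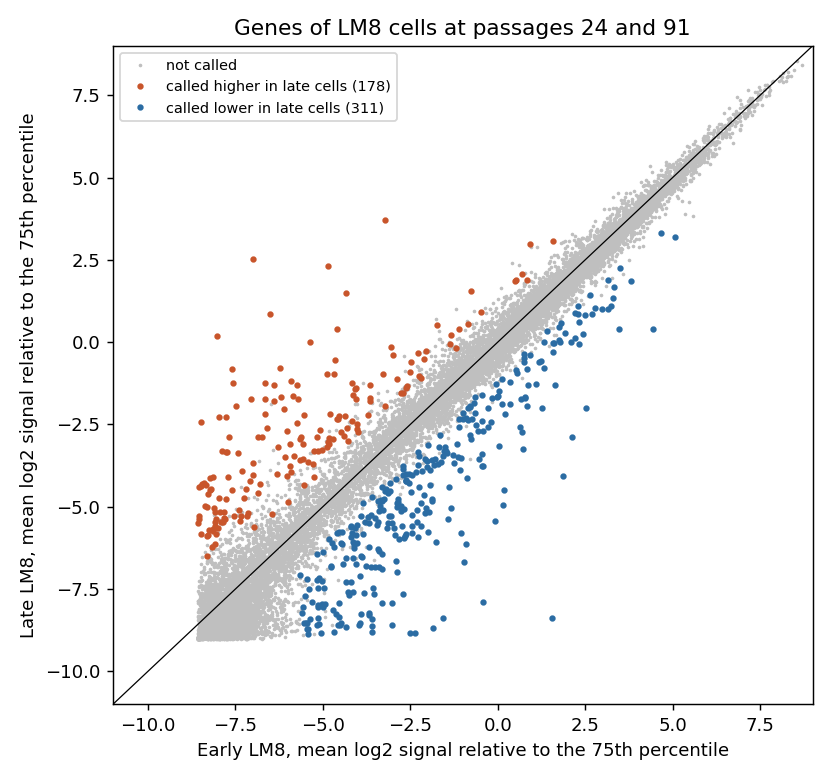
Mean level of 20144 genes in early (x axis) and late (y axis) LM8 cells, each the mean of 3 arrays in log2 units relative to the 75th percentile of the array. The line marks equal levels, and the 178 higher (orange) and 311 lower (blue) genes lie away from it, many of the former near the dim end of the early axis.

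Genes were grouped into lists by pathway and function, and the share of each list that changed was set beside the shares of 0.884% and 1.54% over all genes. Each gene counts by its probe with the highest mean signal, and another probe of the gene can differ. The interferon response list had the largest share of members lower (41.3%), and the list of X-linked cancer-testis families the largest share higher (30.8%). Matrix, contractile and adhesion lists had members on the lower side mostly, whereas 16 pathway lists, among them cell cycle, DNA repair and the Hox clusters, had none that changed. Marker lists of cell types are given separately.

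**Figure D2:**
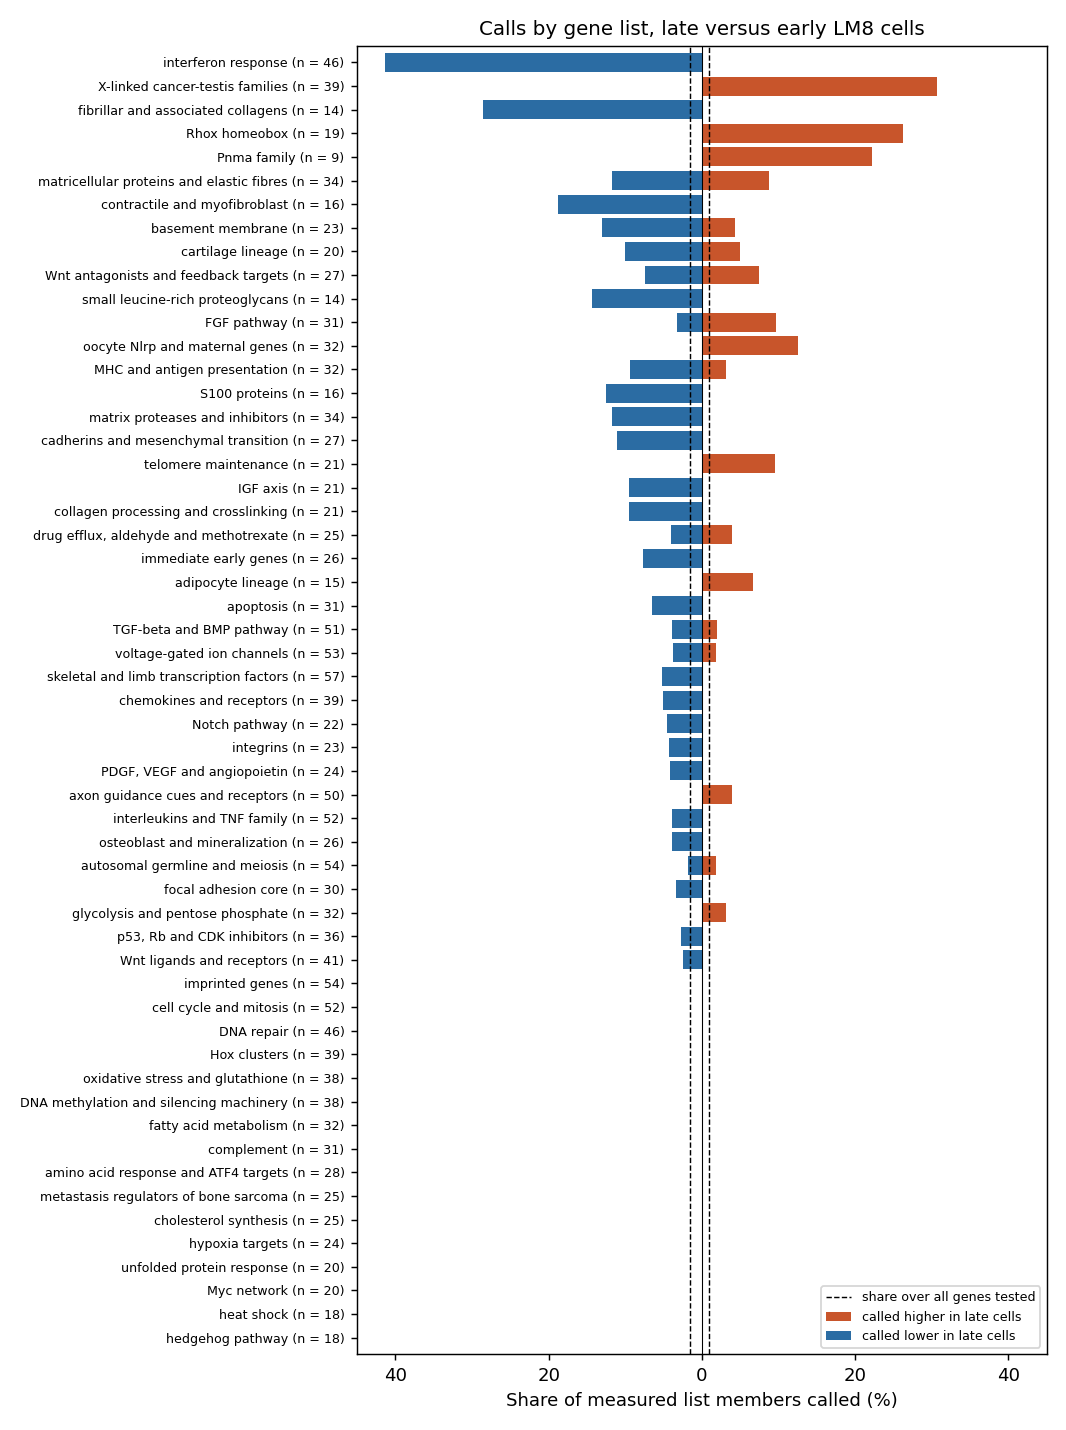
Share of the measured members of each gene list that were higher (orange, to the right) or lower (blue, to the left) in late LM8 cells, in percent, with the number measured in parentheses. Dashed lines mark the shares over all genes, 0.884% higher and 1.54% lower. The interferon response list reaches 41.3% on the lower side.

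Genes of the interferon response fell in late LM8 cells. Of 46 measured members, 19 were lower (41.3%) and 0 higher, and 42 had a lower level in late cells whether or not they passed the test. The median change of the list was -1.5, against -0.19 over all genes. The 19 genes include sensors of viral RNA (Ddx58, Ifih1), antiviral enzymes of the oligoadenylate synthetase family (Oas1a, Oas2, Oasl1, Oasl2), the transcription factors Irf7 and Irf9, the GTPases Gbp3, Igtp and Irgm2, the ubiquitin-like modifier Isg15 with its protease Usp18, and the chemokine Cxcl10.

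Because interferon-induced genes are recognised by an upstream element, the 250 bases before the start site were read from RefSeq (GRCm38.p6) and searched for GAAANNGAAA or, on the other strand, TTTCNNTTTC, the core of that element, overlapping matches included. A window was found for 33 of the 46 members, and 17 of these (51.5%) held the motif, compared with 3.0% of the 15982 windows of all measured genes. The share was 8 of 15 (53.3%) among members that fell and 9 of 18 (50%) among those that did not. Windows of 4 members that fell in all 6 fits are shown 5′ to 3′ on the gene's strand, with the motif in capitals. They include the oligoadenylate synthetase Oas1a and the GTPase Gbp3, whose matches overlap, and the GTPase Igtp and the chemokine Cxcl10, with 1 match each.
Oas1a, chr5:120907526-120907775, minus strand: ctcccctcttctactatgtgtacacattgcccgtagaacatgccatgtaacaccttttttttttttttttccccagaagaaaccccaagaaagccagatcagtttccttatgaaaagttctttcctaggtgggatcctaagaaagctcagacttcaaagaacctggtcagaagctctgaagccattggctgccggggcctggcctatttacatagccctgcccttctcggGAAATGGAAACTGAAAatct
Gbp3, chr3:142559794-142560043, plus strand: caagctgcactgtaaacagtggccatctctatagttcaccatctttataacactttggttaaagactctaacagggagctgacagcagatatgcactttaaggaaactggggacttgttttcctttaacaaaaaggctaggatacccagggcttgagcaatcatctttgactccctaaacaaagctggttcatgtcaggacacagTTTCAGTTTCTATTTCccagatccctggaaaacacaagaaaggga
Igtp, chr11:58199306-58199555, plus strand: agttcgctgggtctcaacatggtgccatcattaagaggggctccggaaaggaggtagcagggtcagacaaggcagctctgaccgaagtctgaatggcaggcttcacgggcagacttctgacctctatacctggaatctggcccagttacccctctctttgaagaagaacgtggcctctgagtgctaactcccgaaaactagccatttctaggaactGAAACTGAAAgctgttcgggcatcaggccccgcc
Cxcl10, chr5:92348890-92349139, minus strand: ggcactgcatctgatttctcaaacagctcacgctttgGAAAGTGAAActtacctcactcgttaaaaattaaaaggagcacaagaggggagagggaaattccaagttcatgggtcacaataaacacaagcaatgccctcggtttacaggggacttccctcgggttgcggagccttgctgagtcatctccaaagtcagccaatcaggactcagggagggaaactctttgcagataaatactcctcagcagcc

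Oas1a, which makes the second messenger that activates the nuclease RNase L, had levels of 2.39, 2.64 and 1.29 on the early arrays and of -2.22, -3.14 and -3.30 on the late arrays. This is a 31.9-fold fall, with a log2 change of -4.99, a standard error of 0.44 and an adjusted p of 0.00274. Rtp4, a chaperone of receptors that interferon induces, was at 0.55, 0.59 and -0.71 in early and at -4.45, -5.06 and -5.38 in late cells, a 34.5-fold fall (adjusted p = 0.0021). Both genes were well above background on all 6 arrays, and their late arrays lay far below the lowest early one.

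Oasl2 fell 26.9-fold (adjusted p = 0.00131), with early levels of -0.73, -0.75 and -1.65 and late levels of -5.38, -5.80 and -6.19. Gbp3 had -1.92, -1.59 and -2.42 in early and -5.53, -5.74 and -6.01 in late cells, 13.8-fold lower (adjusted p = 0.00133). For Usp18, which removes Isg15 from proteins and dampens the interferon receptor, the levels were -2.30, -2.28 and -3.34 in early and -5.58, -5.75 and -6.36 in late cells, a 9.53-fold fall (adjusted p = 0.00687). In each of these 3 genes, early replicate 3 was the lowest of the early arrays. The same held for all 19 members that fell, whose median level was -1.73, -1.34 and -2.42 on the early and -4.51, -5.06 and -5.04 on the late arrays.

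Falls of a smaller size were found in the signalling genes. Irf9, the DNA-binding subunit of the interferon-activated complex, was at 1.08, 1.06 and 0.49 in early and at -1.31, -1.40 and -1.18 in late cells (4.51-fold lower, adjusted p = 0.00559). Ddx58, which encodes the RNA sensor RIG-I, had 1.08, 0.98 and 0.25 in early and -1.59, -1.74 and -1.65 in late cells (5.4-fold lower, adjusted p = 0.00604). Igtp fell 7.72-fold (adjusted p = 0.0087) and Parp14, an ADP-ribosyltransferase, 10.5-fold (adjusted p = 0.00374, with 2 late arrays well above background). Cxcl10, which attracts T cells, was well above background on no late array and was at least 2.92-fold lower (adjusted p = 0.00683). Igtp was close to the threshold without 1 array, with an adjusted p of up to 0.0496.

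Stat2, a partner of Irf9, did not pass the test. It had levels of 0.59, 0.94 and 0.54 in early and -0.11, 0.12 and 0.09 in late cells (adjusted p = 0.227). Irf1, a transcription factor that interferon gamma induces, had overlapping levels of 1.68, 1.98 and 1.34 in early and 1.69, 1.84 and 1.69 in late cells. Gbp6 was the measured member with the highest change, 0.99 (adjusted p = 0.0987).

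**Figure D3:**
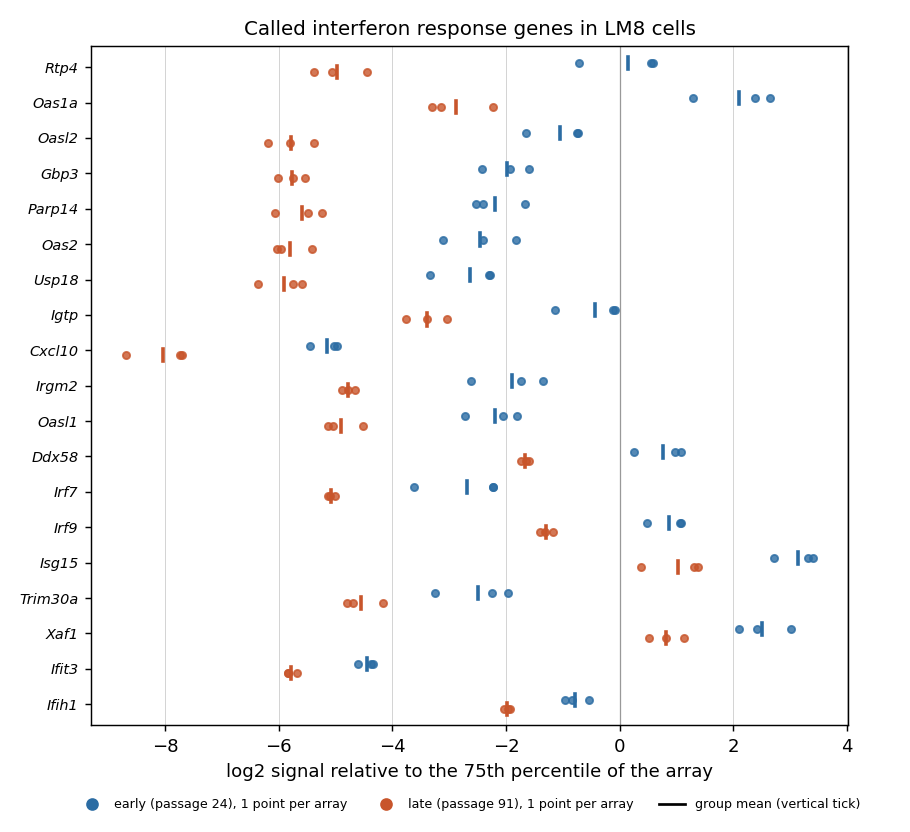
Level of the 19 interferon response genes that were lower in late LM8 cells, in log2 units relative to the 75th percentile of the array, with 1 point per array and a vertical tick at the mean of 3 arrays. Early (blue) and late (orange) points do not overlap in any gene, and the largest fall is that of Rtp4 (a change of -5.11).

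Of the 19 genes, 12 were lower in each fit without 1 array. The other 7 (Irgm2, Isg15, Irf7, Trim30a, Xaf1, Ifit3 and Ifih1) had an adjusted p of 0.0536 to 0.196 in at least 1 of them, and the count was 12 without late replicate 3 and 20 without early replicate 3. The methods' t-test called 3 members. In Dunn cells the median change of the list was -0.65 and all 19 genes had a lower level in late cells. Over all genes the median Dunn change was -0.35, and 71.4% of genes had a lower level in late Dunn cells. The change of LM8 cells differed from that of Dunn cells in 1 of the 19, Gbp3 (-3.79 in LM8 and -0.48 in Dunn, adjusted p = 0.016).

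Few genes of antigen presentation changed. In the list of MHC and antigen presentation, 3 of 32 members were lower (Nlrc5, an activator of MHC class I genes, and the immunoproteasome subunits Psmb8 and Psmb9) and 1 higher, with a median change of -0.58. The 3 falls were 3.14-fold to 3.73-fold, and their adjusted p reached 0.158 to 0.187 without 1 array. A second probe of Nlrc5 changed by -0.46 (adjusted p of limma 0.296). A probe of H2-Q2 that does not represent this member in the count changed by -1.61 (adjusted p = 0.0229). The gene that rose was H2-Eb1, a chain of MHC class II, at -4.16, -4.17 and -4.08 in early and -1.53, -1.71 and -1.57 in late cells (5.79-fold, adjusted p = 0.00124). In the apoptosis list, 2 of 31 members were lower. Of these, Casp4, a caspase that senses bacterial lipopolysaccharide in the cytosol, fell 12.4-fold (adjusted p = 0.00102), from -2.12, -2.07 and -2.65 to -5.68, -6.01 and -6.04.

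Leukocyte markers did not move with these genes. Of 13 markers measured, 0 changed. Well above background on no LM8 array were 6, among them Cd53, Laptm5 and Tyrobp. The background rule was met by 4, among them Itgam and Cd3e, which were well above background on all 6 arrays. The summed linear level of the 13 markers, in multiples of the 75th percentile, was 5.92 to 8.17 on early and 5.61 to 7.9 on late arrays.

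Genes of the extracellular matrix and its receptors fell more often than they rose. In 7 lists (collagens, basement membrane, collagen processing, matricellular proteins, small proteoglycans, integrins, and proteases with their inhibitors) with 162 measured members, 20 were lower and 4 higher, with a median change of -0.44, and 15 of the 20 and 2 of the 4 were found in each fit without 1 array. The focal adhesion list, which is not among them, had 1 of 30 members lower. Genes of matrix remodelling were among the largest falls. Timp2, an inhibitor of matrix metalloproteinases, had levels of 2.31, 1.29 and 1.97 in early and -3.39, -3.89 and -4.91 in late cells, a 60.6-fold fall (adjusted p = 0.00144). Ctsk, the collagen-degrading protease cathepsin K, was at -0.85, -0.76 and -1.13 in early and -6.71, -6.09 and -5.58 in late cells (37.1-fold lower, adjusted p = 0.000766). Mmp13 (collagenase 3) was 8.77-fold lower and Mmp23 7.66-fold lower (adjusted p = 0.0011 and 0.00199). These were the 4 of 34 members of the list of matrix proteases and inhibitors that fell, and 0 rose. Ctsk and Mmp13 were well above background on 2 late arrays.

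Among matrix receptors, 1 of 23 integrins changed. Itga11, the alpha subunit of a collagen receptor of mesenchymal cells, was at 2.74, 2.42 and 2.36 on the early and -1.48, -2.19 and -2.35 on the late arrays (22.9-fold lower, adjusted p = 0.000858). By the probe that represents each gene, the list of fibrillar and associated collagens had 4 of 14 members lower (28.6%) and 0 higher. Of these, Col8a2, a chain of a short-chain collagen, fell 7.51-fold (adjusted p = 0.00173), from -2.86, -3.18 and -2.77 to -5.69, -6.18 and -5.67. Col5a3, Col6a1 and Col16a1 were 2.16-fold to 2.87-fold lower, with an adjusted p of 0.09 to 0.196 in at least 1 fit without an array, and the list's count was 1 or 2 in each of those fits. A second probe of Col14a1, well above background on 0 early and 3 late arrays, was higher by 2.56 (adjusted p of limma 0.00875). The chains of type I collagen, the main protein of bone matrix, did not pass the test (Col1a1, 5.21, 5.24 and 4.98 in early and 5.40, 5.51 and 5.37 in late cells, adjusted p = 0.38).

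Basement membrane genes had 3 of 23 members lower. Col4a2, a chain of type IV collagen, was at -3.60, -3.75 and -3.44 in early cells and was well above background on no late array (-8.08, -8.28 and -8.89), which makes it at least 8.55-fold lower (adjusted p = 0.000611). Lama1, a laminin chain, was at -4.59, -4.58 and -4.34 in early and -8.67, -8.12 and -8.94 in late cells, at least 4.56-fold lower (adjusted p = 0.000932). Lama5 fell 3.55-fold, with an adjusted p of up to 0.0604 without 1 array. The groups did not overlap in any of these 3 genes.

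Small leucine-rich proteoglycans bind collagen fibrils, and 2 of 14 measured members fell. Fmod (fibromodulin) had 3.49, 3.37 and 3.58 in early and 0.47, 0.19 and 0.53 in late cells (8.46-fold lower, adjusted p = 0.000913). Ogn (osteoglycin) fell 9.85-fold (adjusted p = 0.0094). Of the collagen-processing list, Lox, the enzyme that crosslinks collagen and elastin, was at 1.60, 1.65 and 1.50 in early and -0.08, -0.08 and 0.08 in late cells (3.06-fold lower, adjusted p = 0.00645), and Adamts14, a procollagen peptidase, was at least 3.23-fold lower (adjusted p = 0.00645).

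Matricellular proteins and elastic fibre proteins moved in both directions, 4 of 34 lower and 3 higher. Thbs2 (thrombospondin 2) had the largest fall of them, from 0.04, -0.03 and -1.23 to -8.15, -7.07 and -8.47, at least 78-fold (adjusted p = 0.000954). Ccn2, a secreted target of TGF-beta and Yap signalling also known as CTGF, had 2.81, 2.80 and 2.70 in early and 1.02, 1.14 and 0.98 in late cells, a 3.31-fold fall (adjusted p = 0.0048). The microfibril protein Mfap2 fell 9.25-fold (adjusted p = 0.00667). Its relative Mfap5 was well above background on no early array (-8.36, -8.36 and -8.39) and on all late ones (-4.88, -5.14 and -4.95), at least 2.43-fold higher (adjusted p = 0.000577). Smoc1, a calcium-binding matrix protein, was at least 4.53-fold higher (adjusted p = 0.0013), from -8.20, -7.60 and -8.64 to -4.00, -4.19 and -4.09. By these probes Mfap2 and Mfap5 moved in opposite directions. The other probe of Mfap2 changed by -1.42 and did not pass the limma test (adjusted p = 0.0959). For Mfap5 the lowest change under another setting was 0.68.

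**Figure D4:**
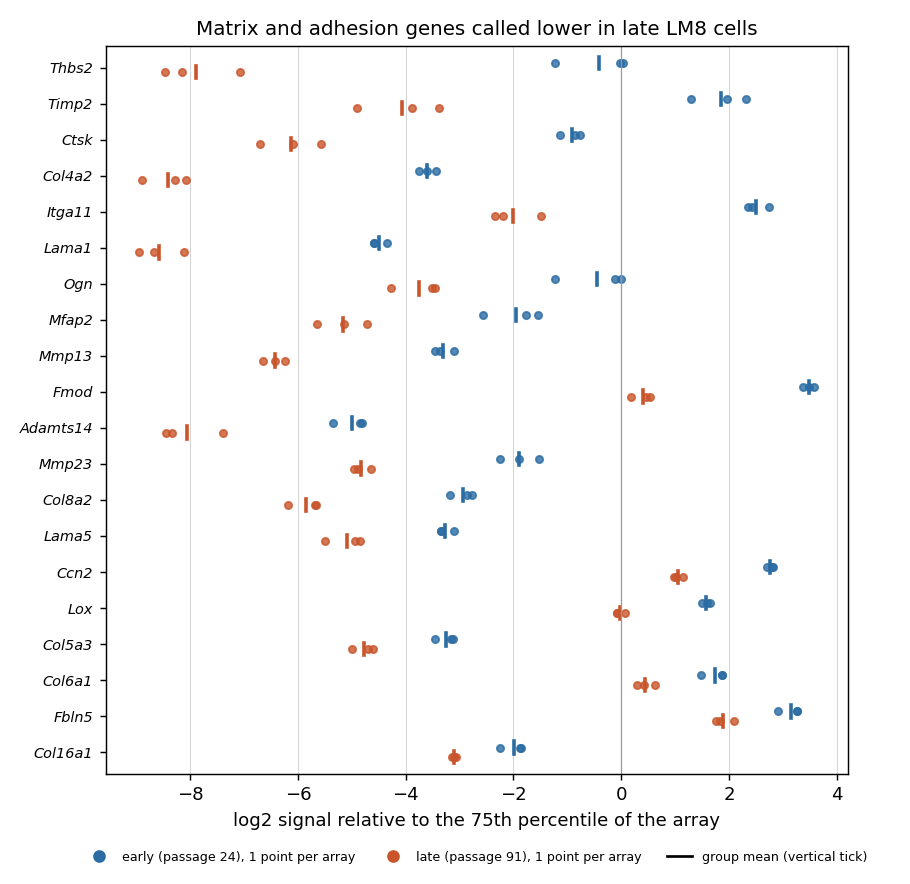
Level of the 20 matrix and adhesion genes that were lower in late LM8 cells, in log2 units relative to the 75th percentile of the array, with 1 point per array and a vertical tick at the mean of 3 arrays. Late points (orange) lie to the left of early points (blue) in each gene, and the change is largest in Thbs2 (-7.49).

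Genes of the contractile apparatus fell as well, 3 of 16 measured (18.8%) with 0 higher and a median change of -0.61. Acta2, the smooth muscle actin that marks myofibroblasts, was at 4.89, 3.71 and 4.70 in early and 0.95, -0.13 and 0.36 in late cells (16.4-fold lower, adjusted p = 0.00451). The calponin Cnn1 and the tropomyosin Tpm2 fell 5.14-fold and 2.69-fold, with an adjusted p of up to 0.0914 and 0.112 without 1 array. Of 10 skeletal muscle markers, Myh3, an embryonic myosin, was 6.25-fold higher (adjusted p = 0.00166) and Acta1 5.04-fold lower (adjusted p of up to 0.0652 without 1 array), and the summed linear level of the list was 0.258 to 0.356 on early and 0.547 to 0.622 on late arrays. Its part in the changes of contractile genes was not tested. Mylk, the kinase that activates myosin, was the 1 of 30 members of the focal adhesion list that changed (-2.87, adjusted p = 0.00436, well above background on 2 late arrays). The muscle regulators Myod1, Myog, Myf5 and Myf6 were well above background on no array.

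Several transcription factors of mesenchymal and limb cells were lower, though most members of their lists did not pass the test. In the list of cadherins and mesenchymal transition, 3 of 27 fell and 0 rose. Twist2, which restrains osteoblast differentiation, was at -2.09, -2.85 and -2.58 in early and -8.59, -9.19 and -8.79 in late cells, at least 18.2-fold lower (adjusted p = 0.000273). Zeb1, a repressor of epithelial genes, was at -3.24, -3.68 and -4.12 in early and -7.63, -8.69 and -8.33 in late cells, at least 8.07-fold lower (adjusted p = 0.0016). No late array was well above background for either. Cdh2 (N-cadherin) was 3.77-fold lower, with an adjusted p of up to 0.0581 without 1 array. Of 57 skeletal and limb factors, 3 fell and 0 rose. The homeobox gene Prrx2 had 0.88, 0.77 and 0.23 in early and -2.39, -2.61 and -2.69 in late cells (9.16-fold lower, adjusted p = 0.00144), and Lhx2 was at least 3.95-fold lower (adjusted p = 0.00371).

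Cartilage genes changed in both directions, with 2 of 20 lower and 1 higher. Cnmd (chondromodulin), an inhibitor of blood vessel growth made by cartilage, was at -2.35, -2.48 and -2.26 in early and -8.53, -9.20 and -8.79 in late cells, at least 20.1-fold lower (adjusted p = 0.000121). Col9a1, a chain of a cartilage collagen, changed by -3.21 (adjusted p = 0.0035), but its probe was well above background on 1 late array, the change was -1.05 to -3.41 under the other settings, and its other probe changed by 0.19 (adjusted p = 0.704). Col10a1, the collagen of hypertrophic cartilage, was well above background on late arrays only and at least 3.27-fold higher (adjusted p = 0.00772).

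The osteoblast identity of the cells was checked with 8 defining markers, of which 7 were measured. All 7 had signal well above background, on every array with a value, in both groups, and 0 changed. Runx2, the master factor of the lineage, had -0.02, 0.27 and 0.63 in early and 0.11, -0.10 and 0.81 in late cells, and Sp7 (osterix) had 2.24, 2.30 and 2.63 in early and 2.59, 2.98 and 2.25 in late cells. Alpl, Spp1 and Ibsp, genes of mineralising osteoblasts, had changes of 0.93, 0.79 and 0.6, each with an adjusted p of 0.293. The value of Col1a2 on early replicate 2 was left out as an outlier spot. In the wider osteoblast list, 1 of 26 members changed, Tnfrsf11b (osteoprotegerin), which was 3.78-fold lower, with an adjusted p of up to 0.0732 without 1 array. The median change of that list was 0.2.

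Markers of other cells gave no change in the endothelial, epithelial, and neural and glial lists. Well above background on no array were 6 of 10 endothelial, 5 of 11 epithelial and 3 of 11 neural and glial markers. The summed linear levels were 4.64 to 4.79 on early and 3.94 to 4.24 on late arrays for the endothelial list, 0.169 to 0.246 and 0.173 to 0.218 for the epithelial list, and 1.39 to 1.55 and 1.48 to 1.72 for the neural and glial list.

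Secreted signals and their receptors changed in small numbers. In the FGF list, 3 of 31 were higher and 1 lower. Fgf9, a ligand of bone and limb development, was well above background on no early array (-7.76, -7.21 and -8.72) and was at -3.63, -3.24 and -3.05 in late cells, at least 7.82-fold higher (adjusted p = 0.0025). Etv4, a target gene of FGF signalling, was 2.82-fold higher, with an adjusted p of up to 0.104 without 1 array. Its relative Etv1 moved the other way, from -2.05, -1.88 and -1.91 to -4.14, -3.84 and -3.68 (3.83-fold lower, adjusted p = 0.00545).

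In the TGF-beta and BMP list, Bmp7, a bone-inducing ligand, was at -7.08, -6.45 and -7.47 in early and -3.49, -3.60 and -3.95 in late cells, at least 6.03-fold higher (adjusted p = 0.00308), whereas Inhba and Inhbb, the beta subunits of activin, were lower in the full fit and had an adjusted p of up to 0.0617 and 0.195 without 1 array. In all, 3 of 51 members changed. Of the 41 Wnt ligands and receptors, only Fzd8 passed the test, 3.53-fold lower (adjusted p = 0.00495). Among 27 Wnt antagonists and feedback targets, the inhibitor Apcdd1 rose 4.21-fold (adjusted p = 0.00638) and Rnf43, the ligase that removes Frizzled receptors, fell 5.59-fold (adjusted p = 0.00143), with levels of 0.75, 0.75 and 0.88 in early and -1.54, -1.84 and -1.69 in late cells. No member of the hedgehog list of 18 genes passed by the probe that represents it. A second probe of Hhat, a member, changed by -5.31 (adjusted p of limma 0.000486). It was well above background on 3 early arrays and 0 late ones.

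Of the growth factor lists, Vegfc, which drives growth of lymphatic vessels, was at least 4.47-fold lower (adjusted p = 0.00453). Ackr3, a scavenging receptor of the chemokine Cxcl12, was at least 4.43-fold lower (adjusted p = 0.00399), from -3.82, -4.74 and -5.07 to -7.96, -8.71 and -8.34. Fosl1, a subunit of AP-1, fell 4.42-fold (adjusted p = 0.00251), and Igf2bp1, an RNA-binding protein, 3.08-fold (adjusted p = 0.00603). Abcg2, a transporter that exports drugs, was at -0.31, -0.36 and -0.94 in early and -3.17, -3.80 and -3.72 in late cells (8.16-fold lower, adjusted p = 0.00293).

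Some lists had changes that did not pass in every fit without 1 array. Of 16 S100 proteins, S100a4, a calcium-binding protein tied to cell motility, had 2.43, 2.52 and 2.01 in early and 0.62, -0.17 and -0.61 in late cells (5.18-fold lower, adjusted p = 0.02, up to 0.1 without 1 array), and S100b was at least 8.87-fold lower (adjusted p = 0.0169, up to 0.0693). Igfbp5, a secreted binding protein of insulin-like growth factors, fell from 2.80, 2.80 and 2.46 to 0.35, 0.93 and 1.27 (adjusted p = 0.0246, up to 0.102). Among 50 genes of axon guidance, the receptors Unc5a and Epha4 were 6.11-fold and 4.83-fold higher and 0 were lower, with an adjusted p of up to 0.0766 and 0.065. In these 5 genes early and late arrays did not overlap.

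Among families normally expressed in germ cells, placenta or the early embryo, 25 genes rose. They are members of 5 lists with 119 measured genes (Rhox, X-linked cancer-testis, Pnma, oocyte Nlrp and maternal genes, and telomere maintenance, which holds the Zscan4 genes), in which 0 fell. These lists were pooled with their results known. The list of autosomal germ line and meiosis genes, which is not among them, had 1 of 54 higher and 1 lower. All 25 were well above background on every late array, which the rule for a change requires wherever the early group falls short. Well above background on no early array were 15 of them. In each fit without 1 array, 22 of the 25 were found. The exceptions were Slx, Rhox3a and Mageb3, with an adjusted p of up to 0.172, 0.0991 and 0.0631. The median change of the 119 members was -0.12.

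Because silencing of such genes is commonly tied to methylation of CpG sites, CpG sites were counted in the 250 bases before the start site (GRCm38.p6). Genes that rose had a median of 4 CpG sites per window (139 genes with a window), compared with 8 for genes that fell (250 genes) and 11 over all 15982 windows. A count of 10 or more was found in 21.6% of windows of genes that rose and in 54.1% of all windows. The files hold no methylation data, so this is a description of the sequence. The families as a whole, with the members that rose included, had few sites too. The median was 5 for the Rhox list and 5 for its members that rose, 2 and 3.5 for the X-linked cancer-testis list, and 2 and 2 for the oocyte Nlrp list. The windows of 3 genes with large rises are shown, 5′ to 3′ on the gene's strand with CpG sites in capitals: 0 sites in the X-linked gene Pnma5, 6 in Rhox2c, a homeobox gene of the X-linked Rhox cluster, and 7 in Nlrp4c, a gene of the oocyte Nlrp family on chromosome 7.
Pnma5, chrX:73037104-73037353, minus strand: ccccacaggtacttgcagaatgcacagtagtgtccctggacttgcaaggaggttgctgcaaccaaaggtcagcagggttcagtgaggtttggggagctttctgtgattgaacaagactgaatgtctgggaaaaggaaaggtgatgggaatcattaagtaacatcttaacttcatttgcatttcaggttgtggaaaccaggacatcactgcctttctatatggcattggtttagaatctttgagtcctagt
Rhox2c, chrX:37453409-37453658, plus strand: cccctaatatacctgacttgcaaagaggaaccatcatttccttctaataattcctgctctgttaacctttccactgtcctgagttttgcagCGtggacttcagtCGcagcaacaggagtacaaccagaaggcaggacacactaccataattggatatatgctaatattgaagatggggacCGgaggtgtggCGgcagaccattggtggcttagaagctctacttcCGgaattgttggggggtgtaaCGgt
Nlrp4c, chr7:6044911-6045160, plus strand: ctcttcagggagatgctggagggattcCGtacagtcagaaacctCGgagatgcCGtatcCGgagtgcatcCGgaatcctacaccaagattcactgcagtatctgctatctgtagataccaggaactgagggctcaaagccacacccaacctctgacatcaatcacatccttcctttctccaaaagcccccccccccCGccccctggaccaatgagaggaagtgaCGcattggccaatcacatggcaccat

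The Rhox genes form a cluster of homeobox genes on the X chromosome that are expressed in testis, ovary and placenta. Of 19 measured, 5 were higher (26.3%) and 0 lower. Rhox2h was well above background on all 6 arrays, with -3.39, -3.34 and -2.96 in early and 3.87, 3.58 and 3.72 in late cells, a 124-fold rise (adjusted p = 0.000121). Rhox5, the founding member, had -4.19, -4.20 and -4.62 in early and 1.60, 1.52 and 1.35 in late cells (56.9-fold higher, adjusted p = 0.000121). Copies of Rhox2 are nearly alike in sequence, so that their probes may share signal, and the number of separate Rhox2 genes that rose is uncertain.

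In the X-linked cancer-testis families, 12 of 39 members were higher (30.8%). Xlr4b, of a family of lymphocyte and germ cell proteins, was well above background on no early array (-7.95, -7.66 and -7.16) and at -0.58, -0.83 and -1.02 in late cells, at least 44.1-fold higher (adjusted p = 0.000165). A group of 4 Ssxb genes, mouse relatives of the SSX antigens, rose together. Ssxb10 had -5.39, -4.32 and -4.10 in early and 0.03, 0.57 and 0.57 in late cells, 31.9-fold higher (adjusted p = 0.00144), and Ssxb1, Ssxb8 and Ssxb9 changed by 5.39, 5.44 and 5.41. Since only 1 or 2 early arrays were well above background for these 3, the size is imprecise, and the lowest change under another setting was 3.47, 2.92 and 2.83. The other probe of Ssxb10 was well above background on no array. Early and late replicate 1 were the lowest of their groups in each of these 4 genes, which lie in 1 multicopy family and may share signal. Luzp4 was at least 10.5-fold and Magea10 at least 1.73-fold higher (adjusted p = 0.000739 and 0.00337). Mageb3, which is in the list, lies on chromosome 2 in the annotation.

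Pnma3, of a family derived from retrotransposons, rose 17.2-fold (adjusted p = 0.000766), from -4.70, -4.23 and -5.00 to -0.62, -0.44 and -0.55. Of the oocyte Nlrp and maternal genes, 4 of 32 were higher, all in the Nlrp family. Nlrp4f was well above background on no early array (-8.33, -8.29 and -8.79) and on all late ones (-2.41, -2.52 and -2.32), at least 14.5-fold higher (adjusted p = 0.000121), and Nlrp14 was at least 7.71-fold higher (adjusted p = 0.000463). The list of telomere maintenance had 2 of 21 members higher, both of the Zscan4 family, whose transcripts mark the 2-cell embryo and a passing state of embryonic stem cells. Zscan4f was at -6.22, -6.44 and -7.30 in early and -1.97, -1.29 and -1.92 in late cells, at least 23.1-fold higher (adjusted p = 0.0013). Zscan4c was at least 10.4-fold higher, and the copies may share signal.

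**Figure D5:**
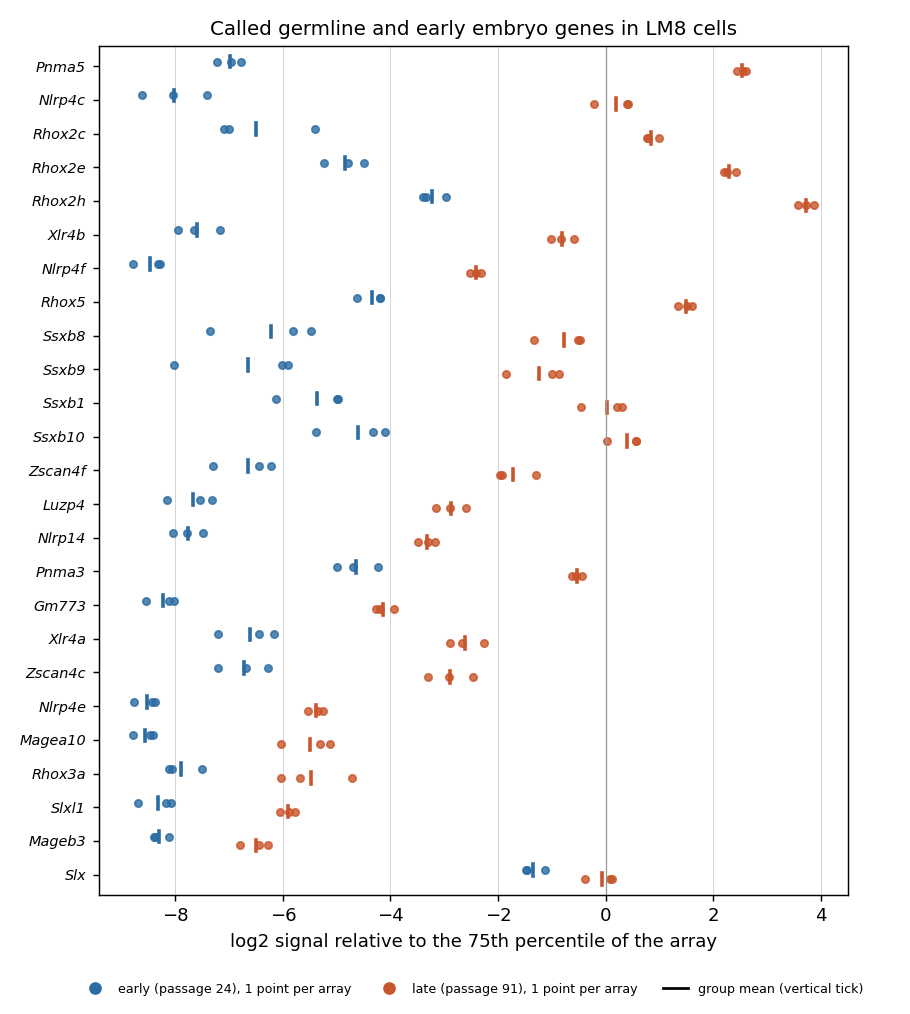
Level of the 25 genes of the 5 germline and early embryo lists that rose in late LM8 cells, in log2 units relative to the 75th percentile of the array, with 1 point per array and a vertical tick at the mean of 3 arrays. Late points (orange) lie to the right of early points (blue) in each gene. Early points of 15 of the genes are not well above background, so their distance is not a fold change.

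The genes that rose were not spread evenly over chromosomes. On the X chromosome 34 of 795 genes were higher (4.28%), compared with 0.159% to 1.32% on the autosomes, and 27 of the 34 were found in each fit without 1 array. Of the 34, 18 belong to the Rhox, cancer-testis and Pnma lists and 16 do not, among them Plac1, a placental gene (1.26 on the log2 scale, adjusted p = 0.0181, and up to 0.108 without 1 array), and Renbp, a sugar epimerase (1.94, adjusted p = 0.00861). On the same chromosome 15 genes (1.89%) fell, and its median change was -0.2. The autosomal germ line and meiosis gene that fell was Pld6, which acts in the piRNA pathway (a change of -3.41, adjusted p = 0.000938, well above background on 1 late array).

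Machinery that could silence such genes, the growth machinery and the stress pathways had no member that passed by the probe that represents it. The 16 lists without a change hold 505 measured genes and include DNA methylation and silencing machinery (38 genes), imprinted genes (54), cell cycle and mitosis (52), DNA repair (46), the Myc network (20), hypoxia targets (24), cholesterol synthesis (25), the unfolded protein response (20) and heat shock (18). By limma, 20 of the 505 (3.96%) passed an unadjusted p of 0.05 and a 2-fold change, compared with 7.42% of all genes. The lists were picked for having no change in these data, so a share below that of all genes was favoured by the choice. The methods' t-test called 0 members, and other settings called up to 3 higher and up to 10 lower, summed over the lists. Their medians ran from -0.51 to 0.13. Other probes of some members did pass by limma. Among them were probes of Hspe1 in the heat shock list (2.98, adjusted p = 0.0355) and Hhat in the hedgehog list (-5.31, adjusted p = 0.000486). Cd82 (-1.5, adjusted p = 0.0173), Serping1 (-1.29, adjusted p = 0.0204) and Cpt1c (-1.13, adjusted p = 0.039) were also lower by such a probe. In the imprinted list, Mest had 3.28, 3.20 and 3.86 in early and 4.29, 4.53 and 4.74 in late cells (adjusted p = 0.117), without overlap of the groups.

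Large changes outside these lists were found by the rule for named genes. Lxn (latexin), an inhibitor of carboxypeptidases, was at 1.62, 1.49 and 1.55 in early cells and well above background on no late array (-7.98, -8.77 and -8.36). Pstpip2, an actin-binding protein of macrophages and osteoclasts, was at -4.91, -4.62 and -5.11 in early and -1.11, -1.02 and -0.75 in late cells (15.1-fold higher, adjusted p = 0.000629). Akr1c13, an aldo-keto reductase, rose 13-fold (adjusted p = 0.0085), and Clec4a1, a lectin receptor, 7.54-fold (adjusted p = 0.00238). Cd200r2 had 1 early array well above background and rose from -6.44, -5.46 and -7.29 to -0.98, -1.54 and -1.40 (adjusted p = 0.00292). Rbms1, which binds RNA and single-stranded DNA, was at -0.26, 0.15 and -0.17 in early and -5.33, -5.54 and -5.43 in late cells, a 40.5-fold fall (adjusted p = 0.000137). Arxes2, an X-linked gene of fat cells, had -1.89, -1.92 and -1.74 in early and -8.34, -9.04 and -8.70 in late cells, a fall of at least 28.7-fold (adjusted p = 0.000121). The kinase Wnk2 fell by 5.71 on the log2 scale (adjusted p = 0.00144, with 1 late array well above background and a change of -1.11 in its other probe), and Ptgs1, the cyclooxygenase COX-1, fell 25.4-fold (adjusted p = 0.000648).

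Whether these changes differed from those of Dunn cells over passages 25 to 86 was tested in a fit of all 12 arrays, as the interaction between line and passage. The change differed in 68 of the 489 genes, and in 66 of them the difference from Dunn had the direction of the LM8 change. The genes were chosen by their LM8 change and the same LM8 arrays enter this test, so that direction was largely set by the choice. The exceptions were Lox and Tmsb4x, which fell further in Dunn cells and were named after their values were seen. Tmsb4x had an adjusted p of up to 0.137 for its LM8 change without 1 array. Over all genes with the test, 122 of 20130 (0.606%) differed. The count of 68 was 29 to 42 without 1 LM8 array, 120 without late Dunn replicate 1 and 35 or 37 without another late Dunn array. Early Dunn arrays were dimmer, with a 75th percentile of 253.2 to 522.1, and 1 gene changed over 2-fold at an adjusted p under 0.05 in Dunn cells themselves, so a change that is not different from Dunn is not thereby shared with Dunn.

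For the 178 genes that rose in LM8, the median change was 2.49 in LM8 and 0.14 in Dunn cells, and 96 of them had a higher level in late Dunn cells, where 28.1% of all genes did. For the 311 that fell, the medians were -2.15 and -0.79, and 255 had a lower level in late Dunn cells, where 71.4% of all genes did. Since both sets were chosen by their change in LM8, a larger median in LM8 is favoured by the choice. Large changes differed in part. Rhox2h changed by 6.95 in LM8 and 0.17 in Dunn cells (adjusted p of the difference 3.1e-05), and Rbms1 by -5.34 and 0.89 (adjusted p = 0.000174). Lama1 changed by -4.07 and 1.04 (adjusted p = 0.00145) and Timp2 by -5.92 and -0.77 (adjusted p = 0.00449). Lox had the larger change in Dunn cells (-1.61 in LM8 and -4.97 in Dunn, adjusted p = 0.031). Twist2 (-6.35 and -7.32) and Col4a2 (-4.82 and -5.45) had large negative changes in both lines, and the difference between lines did not pass the test (adjusted p = 1).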

How the data were processed

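RNA of LM8 and Dunn cells was hybridised by the authors to single-colour Agilent mouse arrays (4x44k v2), 12 arrays on 3 slides, and scanned signals were extracted with Agilent Feature Extraction 10.7.3 (per the submitters' processing notes). The deposited values used here are the processed signal of each spot, an intensity after background subtraction without scaling between arrays, and the deposited flags for spots that are outliers, saturated or well above background. A deposited table of all arrays holds the same intensities (100% of rows). The labels name RNeasy for RNA extraction and the paper TriReagent, and 1 label field calls the cells human, against the organism field and the array design.

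From these, the 43020 spots that are no controls were reduced to 39429 probes, as the mean over spots of a probe after outlier spots had been dropped. A probe without a value on an array (589 probes among the LM8 arrays) counts as not well above background there and is fitted on the arrays left. Intensities were put on the log2 scale and each array's 75th percentile was subtracted. Accessions of 26581 probes (67.4%) matched 20144 genes of RefSeq (GRCm38.p6), and a gene is represented by its probe with the highest mean over the LM8 arrays. Of 149 changed genes with several probes, 44 had all probes changed the same way and 0 an opposite change.

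The test between early and late LM8 arrays was that of limma 3.58.1 (lmFit, eBayes; R 4.3.3) without a block, with Benjamini-Hochberg adjustment over 39428 probes. A second fit held all 12 arrays and an interaction term for line and passage. Genes named were, by rule, the 8 largest rises and the 8 largest falls among genes well above background on all 6 arrays and the same among the others (ordered by the at-least fold, passing over provisional names), up to 4 changed members of each list with the largest change (and the 2 brightest members where fewer than 2 changed), and the osteoblast markers. Other genes are named where a count singles them out, after their values were seen. The members, lists and tests were chosen with earlier results of these data known. Some genes of the lists are counted but not reported here by name. Promoter windows were RefSeq sequence of GRCm38.p6.

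A simulation with known changes and the spread of the LM8 arrays (38840 probes) tested these steps: of changes of 1.5 on the log2 scale 46% were recovered, of changes of 3 88%, with 2 false calls. Replicate numbers mark slides. Deviations from the group means of early and late LM8 arrays of the same slide had correlations of 0.28, -0.0112 and 0.133, so the slide was used as a block in an alternative only. Other alternatives were normexp correction of the median signal (offset 50), quantile normalization, the percentile over bright probes, the unscaled deposited table, floors and filters on dim probes, other rules for several probes, outlier spots kept, 1 fit over 12 arrays, the methods' t-test and leaving out each array.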

Additional observations from a re-analysis of the deposited data

Results flagged for a closer look

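For 24 of the named genes the change over passages differed between LM8 and Dunn cells by the interaction of line and passage (adjusted p of 1.87e-05 to 0.0488, limma over 12 arrays). The values are the LM8 change minus the Dunn change on the log2 scale, and their causes were not tested.

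In the germline and early embryo genes this difference was 10.53 for Pnma5, 7.21 for Xlr4b, 6.78 for Rhox2h, 6.58 for Nlrp4f, 6.22 for Rhox2e, 5.33 for Rhox2c, 4.9 for Zscan4f and 2.44 for Rhox5. Rhox5 also had a higher level in late Dunn cells (a change of 3.39).

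In the matrix and adhesion genes it was -5.15 for Timp2, -5.12 for Lama1, -2.89 for Itga11, -2.64 for Fmod, -2.58 for Mmp13 and -2.09 for Col16a1. For Lox it was 3.35, since the fall was larger in Dunn cells.

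In the remaining genes it was -7.52 for Arxes2, -6.23 for Rbms1, -6.2 for Sertad4, a regulator of transcription, -4.7 for Wnk2, -3.3 for Gbp3, -2.93 for Etv1, 4.09 for Akr1c13, 3.78 for Pstpip2 and 2.17 for Clec4a1.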

How the results depend on the processing

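No gene that changed had the opposite sign under any setting in which it was called. The counts of 178 higher and 311 lower genes were 170 and 308 by quantile normalization. They moved over 1.5 times to 96 and 203 with normexp background correction, 109 and 180 in 1 fit over all 12 arrays, and 66 and 109 by the methods' t-test. The count of higher genes was 77 when all 6 arrays had to be well above background, and that of lower genes 137 in the unscaled deposited table, where the median over all genes was 0.19 (-0.19 after scaling) and 53.1% of changed genes were higher (36.4% after scaling). With a floor on dim signals, 258 were higher and 429 lower, and with a fit over probes that pass the background rule only, 255 and 417. With the slide as a replicate block, 115 were higher and 195 lower, of which 110 and 188 are among the genes of the fit without it. Leaving out each array, 111 to 169 were higher and 156 to 302 lower. The count of 68 genes that differ from Dunn was 62 with the replicate block, 122 by quantile normalization and 29 to 120 without 1 array. The interferon list's 19 lower members were 15 with the block, 13 in the unscaled table and 3 by the methods' t-test, and the 12 higher cancer-testis members were 2 when all 6 arrays had to be well above background. The causes were not tested, except that stricter filters leave fewer genes by construction. Leaving out an array did not always lower a count: 120 genes differed from Dunn without late Dunn replicate 1. Signal over background limits genes that are dim in 1 group, whose change is a bound.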

Other observations

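Genes outside the interferon list with the interferon motif in the window before the start site were looked for after the values were seen. Of the 235 genes with a window that fell and are not on the list, 15 (6.38%) held the motif, compared with 3.0% of all windows. They include Oas1c, of the oligoadenylate synthetase family, the apolipoproteins Apol9a and Apol9b, and Trim12c and Trim30d, of a tripartite motif family of innate immunity. Apol9b had levels of 1.19, 1.17 and -0.17 in early and -2.84, -3.09 and -3.81 in late cells, and fell by 3.98 on the log2 scale (adjusted p = 0.00674). Oas1c was at -2.77, -2.77 and -3.34 in early and -5.28, -5.75 and -5.95 in late cells (adjusted p = 0.00451). Apol9a and Apol9b are close copies whose probes may share signal. In Apol9b and Oas1c early replicate 3 was the lowest early array, as in the 19 genes of the list. Mmp13 and Mylk, named above for matrix and contraction, are also among the 15.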
